A study of Mus musculus with 27 samples.

Results

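At postnatal day 3 (P3), retinal cells carrying an alkaline phosphatase (AP) reporter at the Brn3a locus were bound to magnetic beads through an antibody to AP, and their RNA was compared with that of the cells left unbound in the supernatant (SN). The comparison used 6 of the 27 libraries of the series: 4 of AP-positive cells, which the labels call retinal ganglion cells (RGCs), and 2 of SN. All came from C57Bl/6 mouse retina, and all carried 1 Brn3a AP allele. The second allele was wild type in the heterozygous (HET, Brn3a AP/WT) libraries, 2 AP-positive and 1 SN, and a knockout allele in the KO (Brn3a AP/KO) libraries, again 2 AP-positive and 1 SN. The cells were sorted by activity of the Brn3a locus, whether or not the retina still made the protein. The labels name no treatment, and do not say whether libraries came from separate animals or how many retinas each holds, so p-values measure only the spread between these libraries, which may be technical. SN had 1 library per genotype, pooled here as 1 group, so its spread includes genotype. The 6 Brn3b P3 libraries of the same design (AP-positive and SN, Brn3b AP/WT and AP/KO, called HET and KO likewise) served as the second capture for a test of difference. Another 6 Brn3b libraries of embryonic retina entered the fit only for its estimate of spread, and the brain tissue libraries were not used.

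Brn3a, encoded by Pou4f1, is a POU-domain transcription factor, and with Brn3b (Pou4f2) and Brn3c (Pou4f3) it marks overlapping sets of ganglion cells, the only neurons that send the eye's output to the brain. Brn3b acts early in ganglion cell survival and axon growth, while Brn3a takes part in dendrite shape and the choice of type. At P3 the mouse retina still holds dividing progenitors in its periphery, rod photoreceptors and bipolar cells are being born, ganglion cell axons have reached their targets, and microglia, the resident macrophages, clear dying neurons.

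The 6 libraries held between 32440001 and 36498514 estimated counts, with 16847 to 17942 genes above 0. Mitochondrial transcripts took 3.29 to 3.999% of the counts of AP-positive libraries and 1.66 and 2.41% of SN. Pearson correlations of log2 CPM (counts of a gene per 1000000 counts of the TMM-scaled library) across genes were 0.967 to 0.976 among AP-positive libraries, 0.976 between the SN libraries and 0.833 to 0.875 across fractions. Some labels did not agree among themselves. The genotype entry of Brn3a KO AP-positive replicate 2 names Brn3b, while its title and source name Brn3a. Its Pou4f1 (10.97 CPM) lay near that of KO replicate 1 (16.7). Its Pou4f2 (268 CPM) lay between KO replicate 1 (391) and the Brn3a HET AP-positive libraries, nearer the latter. The Brn3b KO AP-positive libraries had Pou4f2 at 20.99 and 18.6. The source names of all 6 Brn3b libraries name Brn3a, while their titles and genotype entries name Brn3b. The library was therefore used as its title gives it, and the counts for each gene group were also computed without it.

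Of 16954 genes tested with edgeR, 9522 (56.2%) differed between AP-positive and SN at an adjusted p under 0.05, 4760 higher (28.1%) and 4762 lower (28.1%). With a minimum of 2-fold as well, 5390 (31.8%) differed, 3286 higher (19.4%) and 2104 lower (12.4%). The 4 AP-positive libraries lay above both SN libraries for 5913 genes (34.9%) and below both for 5900 (34.8%). Any count of members given below is to be read against these shares, since more than 1 gene in 2 passed. The median log2 fold change over all genes was -0.01. Fold changes are AP-positive over SN, with the standard error (SE) of the fit after ±, and CPM values follow the order HET 1, HET 2, KO 1 and KO 2, then SN HET and SN KO. In bulk RNA, more cells of a type and more RNA per cell cannot be told apart.

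**Figure D1:**
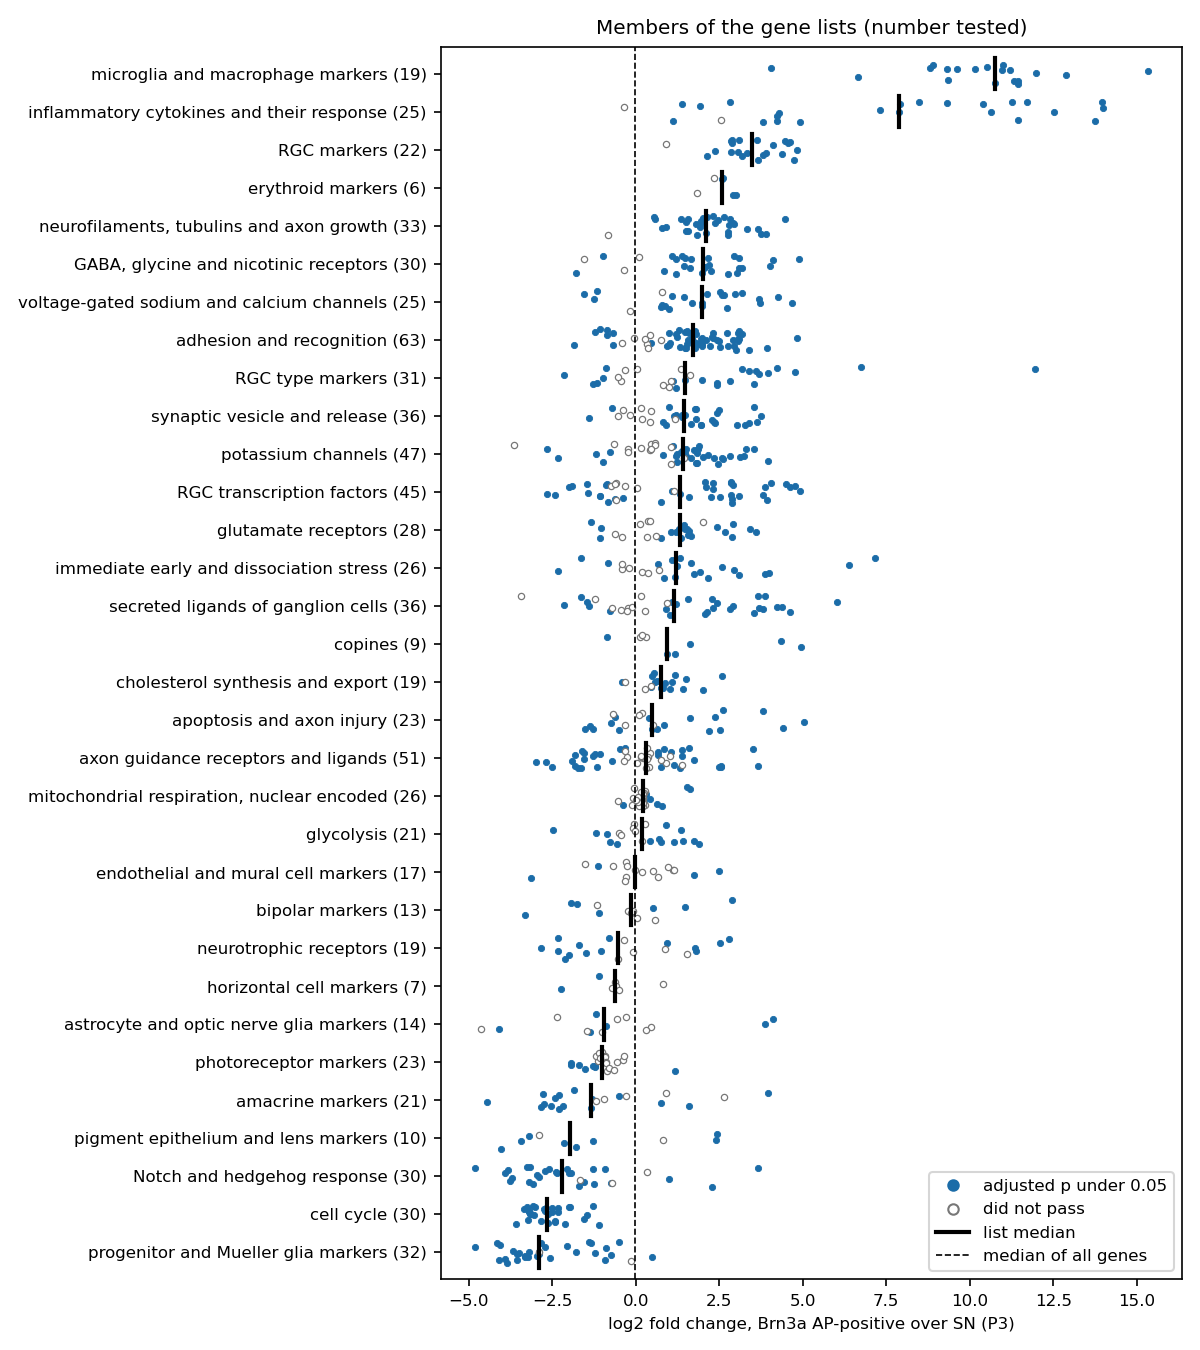
Log2 fold change of every tested member of the 32 gene lists, Brn3a AP-positive over SN at P3. Each point is a gene (filled where edgeR called it, open where it did not pass), the black bar is the list's median and the dashed line the median over all 16954 genes. The microglia and inflammatory lists lie farthest to the right, the cell cycle and progenitor lists to the left, and the guidance list spreads to both sides.

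The targeted gene followed its labels. Pou4f1, on chromosome 14, 104461676 to 104467999 of GRCm38, was at 486, 444, 16.7 and 10.97 against 9.05 and 1.56 CPM. Both HET libraries were far above all others, and the KO libraries were above SN by less. The pooled log2 fold change was 3.92 ± 0.67, adjusted p = 0.000267. Against SN it was 6.45 ± 0.78 in HET (adjusted p = 2.55e-05) and 1.38 ± 0.65 in KO (adjusted p = 0.0978). Pou4f2 (chromosome 8, 78433010 to 78436645) was at 243, 252, 391 and 268 against 9.104 and 9.896 CPM, and Pou4f3 was at 71.1, 72.2, 99.6 and 63.6 against 2.65 and 2.95 CPM. In neither gene did the fractions overlap, and KO replicate 1 was the highest library for both. The log2 fold changes were 4.91 ± 0.42, adjusted p = 1.42e-06 for Pou4f2 and 4.77 ± 0.62, adjusted p = 3.32e-05 for Pou4f3.

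**Figure D2:**
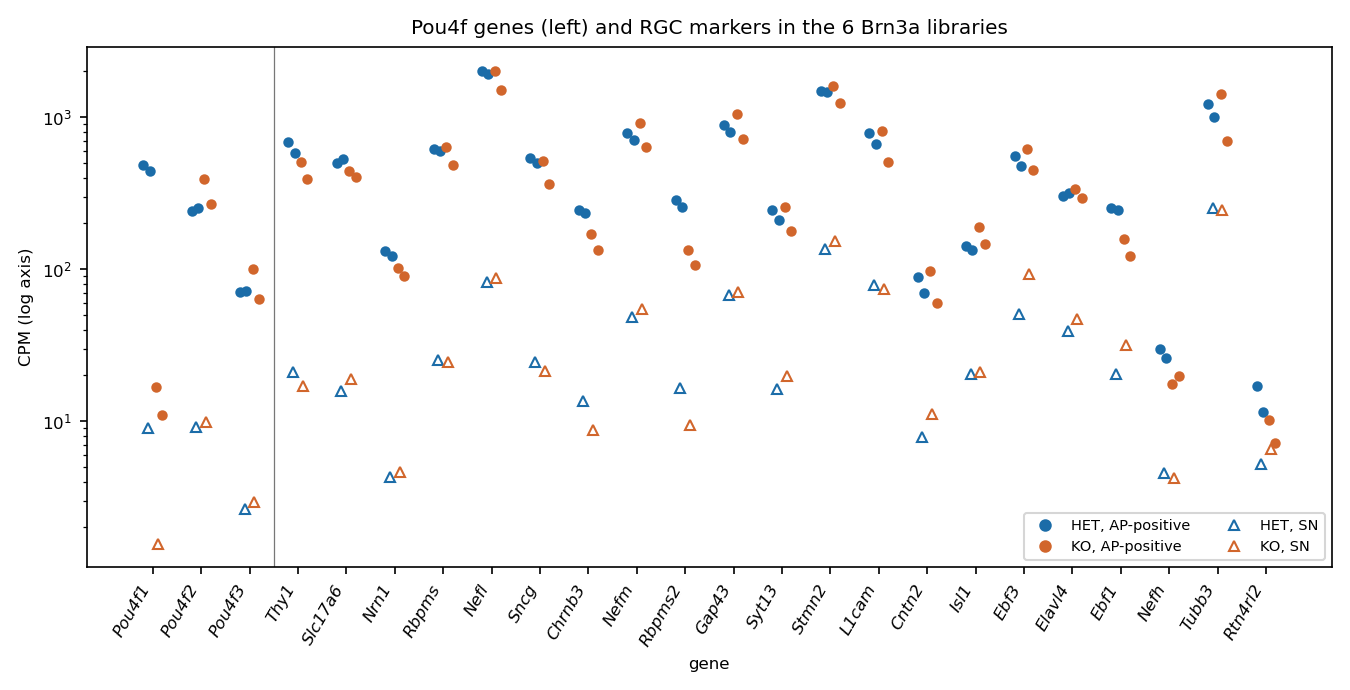
CPM of the 3 Pou4f genes and 21 of the 22 RGC markers in the 6 libraries, on a log axis. Circles are AP-positive (HET and KO in different colours) and triangles SN; in every gene each circle lies above both triangles, and the KO circles of Pou4f1 sit near SN.

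Markers shared by most ganglion cells were higher in the AP-positive fraction almost without exception. Of the 22 in the list 21 rose and none fell, the remaining one being Rtn4rl2, a Nogo receptor homolog (log2 fold change 0.91 ± 0.52, adjusted p = 0.155). Their median log2 fold change was 3.48, and all 22 had AP-positive libraries above both SN libraries. Slc17a6, the vesicular glutamate transporter that loads the transmitter of ganglion cells, was at 502, 528, 446 and 405 against 15.8 and 19.1 CPM, or 4.75 ± 0.38, adjusted p = 7.55e-07. Nefl, the light neurofilament subunit of large axons, was at 2007, 1934, 2025 and 1521 against 82.8 and 87.6 CPM (4.46 ± 0.35, adjusted p = 7.27e-07). Elavl4, a neuronal RNA-binding protein, was at 304, 318, 336 and 294 against 39.3 and 47.01 CPM (2.86 ± 0.22, adjusted p = 5.78e-07). In each of the 3 the AP-positive libraries were close to each other and far from SN. Thy1, a surface glycoprotein used to purify ganglion cells, had the largest rise of the list (4.81 ± 0.53). Large rises, beside those of Slc17a6 and Nefl, were also seen in the plasticity-related Nrn1 (4.63 ± 0.43), Rbpms (4.56 ± 0.40), an RNA-binding protein found in ganglion cells, and Sncg (4.38 ± 0.41). The smallest rises that passed were those of neuronal tubulin Tubb3 (2.12 ± 0.32) and the heavy neurofilament Nefh (2.38 ± 0.46). Rbpms2 and Ebf1 were lower in both KO than in both HET libraries (Rbpms2 at 287, 257, 133 and 107 against 16.5 and 9.47 CPM, Ebf1 at 253, 244, 159 and 123 against 20.5 and 31.7 CPM) yet stayed above SN in every library. Summed over the list, CPM was 8662 to 12123 in AP-positive and 961 and 1039 in SN libraries, lowest of the 4 in KO replicate 2. The same libraries were also far higher in microglia and macrophage markers, given in full further on (summed 5373 to 6707 against 19.5 and 20.0 CPM), and the part of those cells in the ganglion cell results was not tested.

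Transcription factors of ganglion cells did not move as one. Of 45 tested 25 rose, 13 fell and 7 did not pass, with a median of 1.33. The risers included the POU genes and Tbr1, a T-box factor of ganglion cells that keep their dendrites in the OFF layer. Tbr1 was at 37.5, 39.1, 21.8 and 18.8 against 1.44 and 1.900 CPM (4.06 ± 0.40, adjusted p = 4.4e-06). Irx2 and Irx4, Iroquois homeobox genes, were at 48.4, 40.8, 17.5 and 11.8 against 1.75 and 0.312 CPM and at 47.5, 40.5, 13.04 and 9.81 against 1.78 and 1.304 CPM. For both, all AP-positive libraries exceeded SN and the KO libraries were below the HET ones. Their log2 fold changes were 4.63 ± 0.58 and 3.86 ± 0.51. The zinc finger gene Bnc2 was at 21.7, 18.6, 43.5 and 30.02 against 1.92 and 0.482 CPM (4.50 ± 0.72), with the higher values in KO. Isl2, a LIM homeodomain gene of contralaterally projecting ganglion cells, was at 59.9, 50.4, 74.03 and 25.3 against 2.23 and 5.19 CPM (3.82 ± 0.66), and its relative Isl1, needed beside Brn3b for ganglion cell differentiation, was at 142, 133, 190.4 and 146 against 20.4 and 21.04 CPM (2.87 ± 0.30). Others that rose included Zfhx3 (2.90 ± 0.39), Ebf3 (2.87 ± 0.31), Tfap2d (2.86 ± 0.47) and Klf7 (2.06 ± 0.25). Foxp2, a forkhead gene of small direction-selective types, was higher in both HET than in both KO libraries, at 87.2, 88.5, 18.2 and 14.3 against 8.23 and 7.09 CPM (2.30 ± 0.36).

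Other members of the same list fell, and which cells in SN express them was not tested. Zic2, the zinc finger gene of ipsilaterally projecting ganglion cells, was at 7.06, 6.09, 7.74 and 12.9 against 40.1 and 48.3 CPM (-2.42 ± 0.18, adjusted p = 3.53e-07), which was the smallest adjusted p of the list. Eomes, a T-box gene of melanopsin-bearing and other types, was at 4.72, 6.54, 4.21 and 6.18 against 19.5 and 24.1 CPM (-2.01 ± 0.26, adjusted p = 3.34e-05). Tbx20, another T-box gene, was at 1.28, 1.76, 0.579 and 2.29 against 4.23 and 6.805 CPM (-1.90 ± 0.41, adjusted p = 0.00165). For all 3, no AP-positive library reached the lower SN value. Dlx1 (-2.65 ± 0.30) and Dlx2 (-1.46 ± 0.29), distal-less homeobox genes, Nhlh2 (-1.43 ± 0.28), Myt1 (-1.06 ± 0.22), Sox4 (-0.89 ± 0.14) and Meis2 (-0.82 ± 0.17) fell too. Zic1 was at 60.5, 51.04, 12.5 and 9.63 against 35.2 and 27.2 CPM and did not pass in the pooled comparison (-0.33 ± 0.35, adjusted p = 0.44). Its HET values lay above SN and its KO values below.

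Promoters of 2 risers that shared a pattern are shown with the letters TAATTA, the core bound by many homeodomain proteins, in capitals. They are RefSeq sequences of GRCm38.p6, from 150 bases before to 50 bases after the annotated start, 5′ to 3′ on the gene's strand: Tbr1 at chr2:61804303-61804502 (plus strand) and Bnc2 at chr4:84610148-84610347 (minus strand).
Tbr1: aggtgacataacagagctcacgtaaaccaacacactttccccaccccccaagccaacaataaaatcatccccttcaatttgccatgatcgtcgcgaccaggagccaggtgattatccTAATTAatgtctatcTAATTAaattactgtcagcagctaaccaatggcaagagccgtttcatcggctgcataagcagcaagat
Bnc2: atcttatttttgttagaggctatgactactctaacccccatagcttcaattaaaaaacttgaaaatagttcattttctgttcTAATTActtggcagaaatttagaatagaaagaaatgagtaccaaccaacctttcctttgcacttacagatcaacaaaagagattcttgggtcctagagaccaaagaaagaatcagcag
The pattern stood 33 and 18 bases before the Tbr1 start and 68 before that of Bnc2. Within 250 bases before to 50 after the start, on either strand, it was found in 3 of the 33 RGC transcription factor genes with a promoter in the table (9.09%), in 2 of 11 RGC marker genes (18.2%), in 1 of 22 RGC type genes (4.55%), in 2 of 12 bipolar genes (16.7%), in 2 of 18 photoreceptor genes (11.1%), in 0 of 25 cell cycle genes and in 1655 of all 27025 genes (6.12%). Among tested genes with a promoter it was found in 428 of 11764 (3.64%). Shares above these were thus also found in lists of other retinal cells. This pattern and the pair shown further on were picked with their shares seen, from a longer set of short patterns, so the shares are a description.

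Genes used to tell ganglion cell types apart did not move as one. Of 31 tested 17 rose and 5 fell (median 1.48), and the risers include genes that are not confined to ganglion cells. Spp1 (osteopontin), a marker of alpha ganglion cells that microglia also make, was at 130.3, 225, 146 and 227 against 0 and 0.0851 CPM. With 3 counts in SN in all, the ratio was 4311 (95% counting interval 1475 to 20900). Adcyap1, the PACAP peptide of melanopsin-bearing cells, was at 29.7, 27.4, 19.02 and 17.5 against 0.676 and 1.76 CPM (4.22 ± 0.38, adjusted p = 1.88e-06), and Calb2, calretinin, at 1098, 959.9, 745 and 509 against 49.97 and 54.3 CPM (3.94 ± 0.43). Both were above SN in all 4 libraries and lower in KO. Col25a1 (3.19 ± 0.37), the cadherin gene Cdh6 (1.97 ± 0.28) and Fstl4 (2.43 ± 0.39), the last 2 known from direction-selective cells, also rose. Tusc5, a membrane protein gene, was at 89.2, 78.2, 4.48 and 2.996 against 1.94 and 0.992 CPM (3.59 ± 0.64), close to SN in KO. Nts, the neuropeptide neurotensin, was at 2.31, 2.65, 5.700 and 3.61 against 0.0282 and 0.0284 CPM, and with 2 counts in SN its ratio was 125.5 (interval 34.55 to 1039). Trhr, a receptor marking 1 direction-selective type, was at 5.02, 5.78, 3.35 and 6.27 against 0.0846 and 0.284 CPM (4.76 ± 1.16, adjusted p = 0.00407), and its adjusted p was 0.0503 without the SN HET library.

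The type genes that fell were Igfbp2 (11.9, 10.3, 10.97 and 9.39 against 54.8 and 39.5 CPM; -2.15 ± 0.19, adjusted p = 1.4e-06), Igfbp4 (-0.98 ± 0.15), Amigo2 (-1.17 ± 0.28), Jam2 (-0.88 ± 0.25), a junction protein of 1 direction-selective type, and Stxbp6 (-1.28 ± 0.38), which did not pass without SN HET (adjusted p = 0.0684). Opn4, melanopsin, was at 3.23, 2.43, 2.499 and 1.804 against 3.07 and 4.14 CPM and did not pass (-0.55 ± 0.46, adjusted p = 0.326). Its AP-positive values overlapped SN. Penk (-0.43 ± 0.35, adjusted p = 0.302) and Calb1 (0.81 ± 0.34, adjusted p = 0.06) did not pass either, though Calb1 did without KO replicate 1 (adjusted p = 0.0477).

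Genes of the axon's cytoskeleton and growth rose together. Of 33 tested 32 rose and none fell, with a median of 2.11. The list shares Nefl, Nefm, Nefh, Gap43, Stmn2 and Tubb3 with the RGC markers. Gap43, a growth cone protein, was at 892, 802, 1049 and 718 against 67.4 and 70.8 CPM (3.65 ± 0.29, adjusted p = 7.76e-07) and Stmn2, a regulator of microtubule assembly, at 1480.5, 1472, 1606 and 1246 against 136 and 154 CPM (3.32 ± 0.27, adjusted p = 7.9e-07). The kinesin Kif5a, a motor of axonal transport, was at 1399.9, 1232, 1401 and 966 against 95.7 and 91.7 CPM (3.74 ± 0.30). In all 3 every AP-positive library exceeded SN several-fold. The collapsin response mediators Dpysl5 (2.47 ± 0.28), Crmp1 (2.01 ± 0.27), Dpysl3 (1.95 ± 0.21) and Dpysl2 (1.79 ± 0.21), the microtubule proteins Mapt (2.77 ± 0.34), Dcx (2.65 ± 0.33) and Map1b (1.84 ± 0.29), and Uchl1 (2.94 ± 0.31) also rose. Stmn1 (0.58 ± 0.13), which dividing cells also use, was among those that rose least. The peripheral neuron filament gene Prph, at most 0.733 CPM in any of the 6 libraries, did not pass (-0.82 ± 1.02, adjusted p = 0.518).

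Voltage-gated channels that carry the action potential rose with few exceptions. Among sodium and calcium channel subunits 20 of 25 rose and 3 fell (median 1.97). Scn1a was at 105, 108, 86.04 and 92.6 against 8.65 and 6.55 CPM (3.68 ± 0.26, adjusted p = 2.77e-07), Scn2a1 at 233, 266, 245 and 221 against 16.3 and 20.6 CPM (3.71 ± 0.31, adjusted p = 1.1e-06) and Scn9a at 77.4, 85.2, 84.5 and 67.1 against 4.23 and 1.900 CPM (4.68 ± 0.49). These are pore-forming sodium channel subunits, and for all of them the 4 AP-positive libraries stayed within a narrow range. The N-type and P/Q-type presynaptic calcium channels rose as well, with Cacna1b at 224, 205, 235 and 156 against 24.5 and 27.7 CPM (2.97 ± 0.28, adjusted p = 2.7e-06) and Cacna1a at 2.59 ± 0.36. The subunits that fell were T-type Cacna1h (139, 106, 101 and 117 against 282 and 267 CPM; -1.25 ± 0.17), and Cacna2d4 (-1.55 ± 0.39) and Cacna1f (-1.16 ± 0.46), which photoreceptor terminals use. Cacna1f lost its call without any of 5 of the 6 libraries (adjusted p up to 0.14). Potassium channels had 29 of 47 higher and 5 lower (median 1.43), the latter 3 without SN KO. Kcnh5 was at 43.4, 40.9, 48.8 and 46.7 against 4.48 and 5.104 CPM (3.23 ± 0.27, adjusted p = 1.25e-06), Kcna6 at 121, 95.7, 98.9 and 76.2 against 15.4 and 20.3 CPM (2.45 ± 0.22, adjusted p = 2.28e-06) and Kcnd2, an A-type channel, at 112, 105, 63.00 and 46.3 against 5.16 and 4.79 CPM (3.95 ± 0.40, adjusted p = 4.59e-06). The M-current subunit Kcnq3 (3.52 ± 0.36) and the leak channel Kcnk9 (3.30 ± 0.58) rose too. Kcnj10, the potassium channel of glia, fell from SN, at 4.29, 4.83, 5.27 and 6.298 against 32.4 and 32.4 CPM (-2.66 ± 0.31).

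Receptors for the inputs of ganglion cells were mostly higher. Ionotropic and metabotropic glutamate receptors and their partners had 17 of 28 higher and 3 lower (median 1.32). Without SN HET 10 were higher, and without SN KO 1 was lower, in fits where the lone SN library is assumed to vary like the other groups. The NMDA receptor subunit Grin2b was at 109, 102, 121 and 111 against 8.99 and 9.16 CPM (3.61 ± 0.33, adjusted p = 2.5e-06), the metabotropic receptor Grm5 at 31.3, 30.5, 35.8 and 26.1 against 3.55 and 2.24 CPM (3.42 ± 0.40, adjusted p = 1.59e-05) and Grin3a at 28.7, 29.2, 20.4 and 14.5 against 3.07 and 2.98 CPM (2.89 ± 0.35, adjusted p = 1.76e-05). The obligatory NMDA subunit Grin1 (2.91 ± 0.46) and the AMPA subunits Gria4 (1.55 ± 0.22) and Gria2 (1.28 ± 0.25) rose. Cacng3 (-1.33 ± 0.29) fell, and so did Grm2 (-1.08 ± 0.35), which did not pass without SN KO (-0.60 ± 0.42). The kainate subunit Grik2 was at 26.4, 28.1, 79.2 and 76.9 against 36.2 and 35.3 CPM and did not pass (0.37 ± 0.16, adjusted p = 0.0647), with HET below and KO above SN. Receptors for GABA, glycine and acetylcholine had 25 of 30 higher and 2 lower (median 2.01). Gabrg3 was at 92.5, 92.8, 90.2 and 80.99 against 10.4 and 9.44 CPM (3.17 ± 0.24, adjusted p = 4.81e-07), and Chrna6, a nicotinic subunit of visual pathway terminals, at 373, 355, 258 and 209.6 against 9.08 and 10.9 CPM (4.87 ± 0.44, adjusted p = 1.86e-06). Gphn, the scaffold of inhibitory synapses, was at 111, 109.5, 121 and 111 against 47.5 and 49.99 CPM (1.21 ± 0.11, adjusted p = 2.6e-06). Its change was small and its libraries were tight. The partner subunit Chrnb3 (4.09 ± 0.83), the developmental subunits Chrnb2 (1.62 ± 0.22) and Chrna3 (1.48 ± 0.18) of cholinergic retinal waves, and the glycine receptor gene Glra1 (4.01 ± 0.92) also rose, while Chrnb4 (-0.98 ± 0.15) and Gabrd (-1.79 ± 0.53) fell, the latter not passing without SN KO (adjusted p = 0.0982).

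Synaptic vesicle and release genes had 26 of 36 higher and 2 lower (median 1.43). The synaptotagmin Syt13 was at 247, 211, 255 and 178 against 16.3 and 19.7 CPM (3.63 ± 0.30, adjusted p = 9.99e-07) and the complexin Cplx1 at 232, 199, 222 and 133 against 20.4 and 20.6 CPM (3.26 ± 0.29, adjusted p = 1.95e-06). Both were above SN in every library. Cplx3, the complexin of ribbon synapses, fell (42.6, 43.5, 19.02 and 76.9 against 104 and 138 CPM; -1.41 ± 0.37), as did Syt6 (-0.73 ± 0.19), and within the AP-positive libraries Cplx3 was highest in KO replicate 2. Without that library 4 members were lower. The general vesicle protein gene Syp did not pass (0.46 ± 0.20, adjusted p = 0.0648).

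Axon guidance genes were divided. Of 51 tested 16 rose, 18 fell and 17 did not pass (median 0.31), shares of which neither is far from those over all genes. The 3 smallest adjusted p were falls: the netrin Ntn4 (5.599, 6.37, 7.19 and 6.298 against 20.7 and 21.3 CPM; -1.73 ± 0.14, adjusted p = 6.82e-07), the semaphorin Sema3f (46.6, 37.9, 27.6 and 41.1 against 114 and 118 CPM; -1.60 ± 0.16, adjusted p = 4.27e-06) and the plexin Plxnb1 (143, 124, 134 and 147 against 297 and 313 CPM; -1.16 ± 0.12, adjusted p = 4.95e-06). Families were split within themselves. Of the Robo receptors, Robo2 was at 664, 578, 600.4 and 484 against 229.5 and 218 CPM (1.37 ± 0.18), while Robo1 was at 21.3, 21.04, 28.3 and 27.03 against 91.7 and 79.6 CPM (-1.82 ± 0.20) and Robo3 at 27.9, 24.6, 20.2 and 37.9 against 180.2 and 137 CPM (-2.52 ± 0.26). Robo2 was higher in every AP-positive library and the other 2 were lower in every one. Of the Eph receptors, Epha6 (3.66 ± 0.57), Ephb1 (1.04 ± 0.22), the receptor of the ipsilateral turn at the chiasm, and Epha5 (0.65 ± 0.14) rose, and Epha3 (-2.98 ± 0.33), Epha8 (-1.55 ± 0.26) and Ephb4 (-1.64 ± 0.44) fell. Among their ligands Efna3 (2.56 ± 0.35) rose, and Efnb2 (-1.56 ± 0.17) and Efnb1 (-1.27 ± 0.23) fell. Semaphorins Sema3e (3.50 ± 0.51), Sema3a (2.55 ± 0.40), Sema6a (1.74 ± 0.24) and Sema6d (1.32 ± 0.26) rose, and Sema5a (-1.90 ± 0.22) and Sema5b (-2.68 ± 0.34), which keep neurites in the inner retina, fell. The neuropilins Nrp2 (1.39 ± 0.21) and Nrp1 (0.83 ± 0.19) rose with the Nogo receptors Rtn4r (2.48 ± 0.42) and Rtn4rl1 (1.59 ± 0.16). The netrin receptor Dcc did not pass (0.35 ± 0.27, adjusted p = 0.291).

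**Figure D3:**
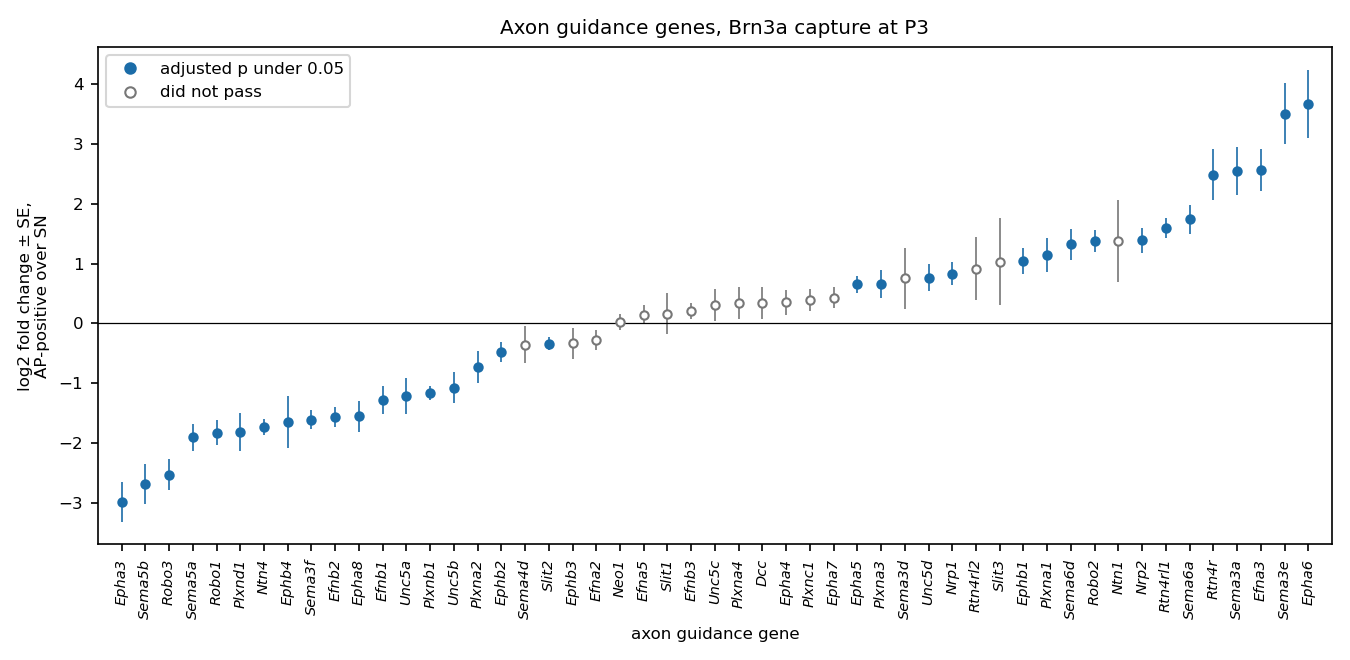
Log2 fold change (AP-positive over SN) with its SE for the 51 axon guidance genes, ordered by value. Filled points passed at an adjusted p under 0.05 (16 higher, 18 lower) and open points did not; Epha6 and Sema3e are at the upper end and Epha3, Sema5b and Robo3 at the lower.

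Adhesion and recognition genes leaned to the AP-positive side. Of 63 tested 49 rose and 7 fell (median 1.70). Alcam, an immunoglobulin protein that ganglion cell axons grow along, was at 133, 119, 95.2 and 85.8 against 11.8 and 13.2 CPM (3.09 ± 0.18, adjusted p = 4.64e-08), which had the smallest adjusted p of the list. Cntn1, a contactin, was at 577, 579.8, 499.6 and 459 against 162 and 168 CPM (1.67 ± 0.12, adjusted p = 4.34e-07), and Ncam2 at 51.4, 68.2, 76.5 and 59.5 against 8.82 and 8.31 CPM (2.90 ± 0.24, adjusted p = 9.27e-07). None of these overlapped SN. Chl1 (3.92 ± 0.33), Opcml (3.39 ± 0.28), L1cam (3.18 ± 0.32), Cntn2 (3.06 ± 0.28) and Cntn5 (3.06 ± 0.36), the protocadherins Pcdh7 (2.53 ± 0.25) and Pcdh10 (2.50 ± 0.24), and the teneurins Tenm2 (2.00 ± 0.29) and Tenm3 (1.81 ± 0.24) rose. Type II cadherins Cdh10 (2.43 ± 0.29), Cdh12 (2.22 ± 0.22), Cdh7 (1.98 ± 0.24) and Cdh8 (1.70 ± 0.32) rose as well. Falling members included N-cadherin Cdh2 (265, 217, 252 and 231 against 523 and 501 CPM; -1.09 ± 0.14), Cdh11 (-1.22 ± 0.24), Lrrtm1 (-1.84 ± 0.35), Nlgn1 (-0.85 ± 0.17) and Flrt3 (-0.67 ± 0.12).

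Of 36 secreted ligands 21 rose and 5 fell (median 1.13). Vegfa, the angiogenic factor, fell, at 67.2, 62.4, 59.3 and 60.4 against 186 and 158 CPM (-1.46 ± 0.12, adjusted p = 1.13e-06). Fgf12, which the list holds although its protein stays inside the cell and binds sodium channels, rose, at 300.0, 315, 351 and 281 against 24.1 and 29.1 CPM (3.55 ± 0.31, adjusted p = 1.42e-06), and so did Nell2, at 804, 710.0, 684 and 465 against 34.4 and 29.7 CPM (4.36 ± 0.38, adjusted p = 1.64e-06). Neither gene overlapped between the fractions. Reln (2.83 ± 0.31), the platelet-derived factor Pdgfa (2.42 ± 0.22), which acts on retinal astrocytes, Gal (3.81 ± 0.35) and Bdnf (2.13 ± 0.41) also rose. Tgfb1 (6.01 ± 0.56) rose while Tgfb2 (-1.64 ± 0.29) fell, and Tgfb1 is expressed by microglia. Receptors for neurotrophic factors leaned the other way, with 5 of 19 higher and 9 lower (median -0.54). Ntrk2, the BDNF receptor TrkB, was at 163, 148, 278 and 183 against 27.96 and 27.3 CPM (2.77 ± 0.27, adjusted p = 3.84e-06). Gfra1, a GDNF co-receptor, was at 7.88, 11.8, 12.8 and 20.2 against 52.1 and 50.2 CPM (-2.00 ± 0.21, adjusted p = 7.62e-06) and Ngfr, the p75 receptor, at 19.4, 16.9, 18.7 and 16.9 against 85.8 and 95.4 CPM (-2.33 ± 0.25, adjusted p = 8.08e-06). The former was higher and the last 2 were lower in every AP-positive library. Ret (1.79 ± 0.31), the signalling receptor for the GDNF family, and its co-receptor Gfra4 (2.51 ± 0.30) rose. Kit (-2.33 ± 0.29) and Fgfr1 (-1.71 ± 0.22) fell. Copines, calcium-dependent membrane-binding proteins, had 5 of 9 higher and 1 lower (median 0.94), a family that the study of these samples picked out, so its count is not independent evidence. Cpne9 was at 48.1, 40.6, 34.02 and 21.6 against 1.13 and 1.13 CPM (4.95 ± 0.40, adjusted p = 8.19e-07), Cpne4 at 371, 306, 140.2 and 115 against 11.1 and 9.36 CPM (4.35 ± 0.54, adjusted p = 2.32e-05) and Cpne5 at 44.2, 47.5, 42.2 and 29.6 against 11.4 and 14.8 CPM (1.63 ± 0.26, adjusted p = 0.000145). Cpne4 was lower in both KO than in both HET libraries, and Cpne3 fell (-0.88 ± 0.18).

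Genes of the Notch and hedgehog pathways were mostly lower. Of 30 tested 24 fell and 3 rose (median -2.22). Shh, the ligand that ganglion cells send to progenitors, was at 17.3, 18.9, 18.5 and 15.7 against 1.41 and 1.36 CPM (3.67 ± 0.48, adjusted p = 3.79e-05). Its transcriptional target Gli1 was at 1.34, 1.31, 0.792 and 1.101 against 45.9 and 17.4 CPM (-4.81 ± 0.59, adjusted p = 2.08e-05) and the receptor Ptch1, another target, at 62.4, 57.6, 46.2 and 57.1 against 189 and 137 CPM (-1.55 ± 0.22, adjusted p = 7.03e-05). The ligand was above SN in every library and the targets were below it. Gli2 (-3.76 ± 0.34), Gli3 (-3.72 ± 0.46), the transducer Smo (-1.93 ± 0.24), the co-receptors Cdon (48.3, 45.7, 41.9 and 69.4 against 303 and 315 CPM; -2.60 ± 0.23, adjusted p = 1.8e-06) and Gas1 (-3.26 ± 0.41) fell too. On the Notch side the receptor Notch1 (-2.90 ± 0.34), the ligands Dll1 (-3.21 ± 0.31), Dll3 (-2.37 ± 0.25) and Dll4 (-3.16 ± 0.35), the fringe genes Mfng (22.00, 20.9, 21.7 and 22.5 against 82.98 and 89.5 CPM; -1.99 ± 0.16, adjusted p = 7.9e-07) and Lfng (-2.97 ± 0.37), the target Heyl (-3.84 ± 0.42), and Hes6 (56.7, 44.95, 42.3 and 63.7 against 267 and 276 CPM; -2.39 ± 0.20, adjusted p = 1.31e-06), a bHLH gene known to oppose Hes1, fell. The other risers were Dner (2.27 ± 0.28), a neuronal transmembrane ligand, and Jag2 (0.99 ± 0.37), whose call was lost without any of 5 of the 6 libraries (adjusted p up to 0.181).

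Progenitor genes were depleted from the AP-positive fraction. Of 32 progenitor and Mueller glia markers 29 fell and 1 rose (median -2.90), and the list shares 6 genes with the Notch and hedgehog list. Dll1 was at 12.8, 11.9, 11.3 and 18.1 against 124 and 124 CPM (-3.21 ± 0.31, adjusted p = 3.52e-06), Sox8 at 4.81, 5.17, 3.96 and 7.92 against 99.7 and 95.1 CPM (-4.16 ± 0.41, adjusted p = 4.27e-06) and Olig2 at 0.517, 0.587, 0.884 and 1.38 against 13.9 and 13.1 CPM (-4.09 ± 0.44, adjusted p = 7.4e-06). All were low in every AP-positive library. The bHLH gene Neurog2 (-2.85 ± 0.31), the cyclin Ccnd1 (-3.87 ± 0.46), and Lhx2 (-3.55 ± 0.39), Sox9 (-3.67 ± 0.43) and Hes5 (-3.91 ± 0.54) fell. The riser was Six3 (287, 252, 302 and 278 against 213 and 187 CPM; 0.48 ± 0.14), which ganglion cells also express and which did not pass without SN KO (adjusted p = 0.113). The glial enzyme gene Glul (-0.13 ± 0.12, adjusted p = 0.37) did not pass.

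All 30 cell cycle genes fell (median -2.66), and for all 30 the fractions did not overlap. The helicase subunit Mcm7 was at 38.1, 34.5, 34.6 and 41.00 against 214 and 160.1 CPM (-2.33 ± 0.18, adjusted p = 6.66e-07), the G1/S factor E2f1 at 11.7, 9.304, 10.5 and 11.01 against 128 and 90.3 CPM (-3.36 ± 0.30, adjusted p = 1.77e-06) and the mitotic activator Cdc20 at 7.24, 5.28, 7.74 and 11.3 against 85.3 and 55.7 CPM (-3.19 ± 0.33, adjusted p = 5.37e-06). Mki67, the proliferation antigen, was at 37.6, 37.8, 62.6 and 63.7 against 621 and 309 CPM (-3.25 ± 0.43), with SN HET above SN KO. Summed over the list, CPM was 436 to 636 in AP-positive libraries, 4139 in SN HET and 2415 in SN KO, so the 2 SN libraries differed from each other.

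The promoter of Cdk1, the mitotic kinase, is shown with the letters TTTGAA, the cell cycle homology region pattern, in capitals (RefSeq, GRCm38.p6, chr10:69352863-69353062, minus strand, 5′ to 3′).
Cdk1: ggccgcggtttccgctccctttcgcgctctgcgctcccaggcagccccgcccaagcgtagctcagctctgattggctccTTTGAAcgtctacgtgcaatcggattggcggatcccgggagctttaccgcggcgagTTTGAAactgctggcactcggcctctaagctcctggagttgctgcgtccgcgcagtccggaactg
It holds the pattern 71 and 15 bases before the start. The pattern was found in the promoters of 14 of 25 cell cycle genes (56.0%), 4 of 12 bipolar genes (33.3%), the next highest list, 3 of 14 microglia genes (21.4%), 2 of 11 RGC marker genes (18.2%) and 5466 of all 27025 (20.2%). The pattern was also in 7 of 22 RGC type genes (31.8%) and in 1690 of the 11764 tested genes with a promoter (14.4%). Cdk1 itself was at 9.31, 10.9, 15.3 and 14.5 against 94.8 and 55.9 CPM (-2.62 ± 0.44, adjusted p = 0.000225).

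Markers of other retinal neurons mostly fell or did not pass. Of 21 amacrine markers 13 fell and 3 rose (median -1.34). The AP-2 factors Tfap2c (3.59, 3.297, 2.74 and 5.56 against 18.5 and 22.2 CPM; -2.43 ± 0.28, adjusted p = 1.21e-05), Tfap2b (50.4, 65.96, 45.8 and 118 against 449.6 and 489 CPM; -2.77 ± 0.32, adjusted p = 1.38e-05) and Tfap2a (-2.83 ± 0.39) fell, with Nr4a2 (-2.76 ± 0.32), the GABA-synthesis genes Gad1 (-2.53 ± 0.41) and Gad2 (-1.30 ± 0.17), the vesicular transporter Slc32a1 (-2.31 ± 0.42) and Prdm13 (-1.84 ± 0.25). The risers included Calb2 (adjusted p = 9.09e-06) and Ebf2 (1.59 ± 0.33), both of which ganglion cells express. Summed over the amacrine list, Calb2 included, CPM was 1800 to 2431 in AP-positive libraries and 1919 and 2116 in SN, so the sums overlapped. Of 7 horizontal cell markers 2 fell, Prox1 (43.4, 37.5, 22.6 and 54.97 against 177 and 197 CPM; -2.24 ± 0.25, adjusted p = 9.44e-06) and Sept4 (-1.10 ± 0.20, adjusted p = 0.000495), and the third by adjusted p, Calb1, did not pass (adjusted p = 0.06). Of 13 bipolar markers 3 rose and 4 fell (median -0.15). Without either SN library 1 rose, and without SN KO or KO replicate 1 2 fell. Isl1, shared with ganglion cells, rose (adjusted p = 5.96e-06), and Otx2 (-1.96 ± 0.37, adjusted p = 0.000642) fell. The falling shares of the horizontal and bipolar lists lay close to the 28.1% of all genes that fell.

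Of 23 photoreceptor markers 7 fell and 1 rose (median -1.02), fewer than the 28.1% of all genes that rose and close to the 28.1% that fell. Prdm1 was at 96.5, 72.6, 47.6 and 140.1 against 344 and 346 CPM (-1.95 ± 0.30, adjusted p = 0.000125), Otx2 at 168, 159, 74.5 and 321 against 666 and 729.8 CPM and Neurod1 at 243, 233, 122 and 420.1 against 789 and 871 CPM (-1.71 ± 0.33, adjusted p = 0.000779). Within the AP-positive libraries KO replicate 2 was highest and KO replicate 1 lowest for all 3. The summed CPM of the list was 1809 and 1961 in HET, 779 in KO replicate 1 and 3496 in KO replicate 2, against 4410 and 5580 in SN. Rxrg, a nuclear receptor of cones that ganglion cells also express, was the riser (1.17 ± 0.26). Without KO replicate 2, 22 of the 23 fell and 1 rose, with a median of -1.95.

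**Figure D4:**
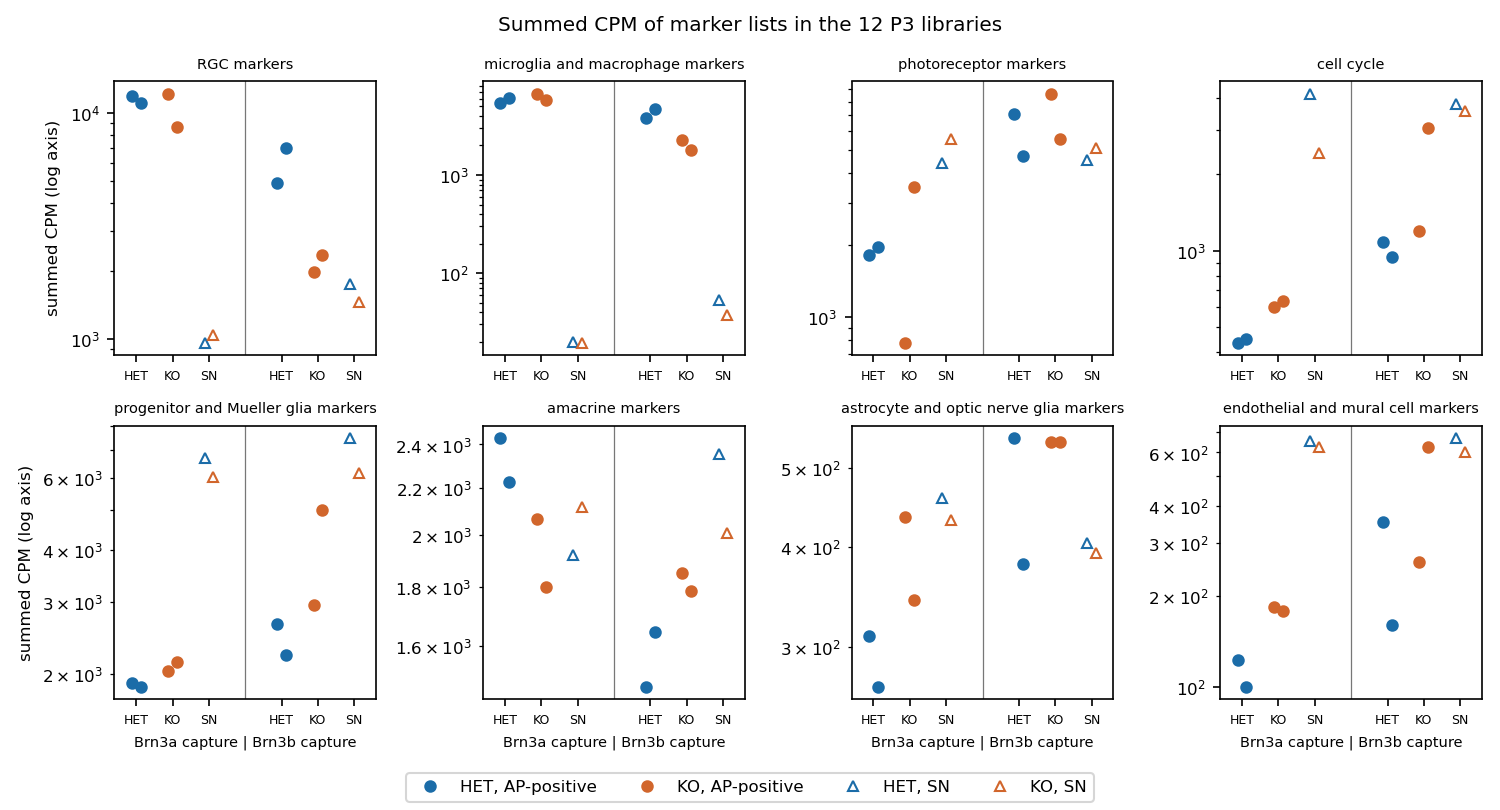
Summed CPM of 8 marker lists in the 12 P3 libraries, on log axes. Most of the endothelial and mural sum in Brn3a SN is Kdr, which retinal progenitors also express. Circles are AP-positive and triangles SN, for the Brn3a capture on the left and the Brn3b capture on the right of each panel; microglia markers are at 5373 to 6707 in Brn3a AP-positive libraries and near 20 in their SN, and photoreceptor markers are highest in KO replicate 2 among the 4.

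The largest differences of all were in genes of microglia and macrophages. All 19 markers tested rose, with a median log2 fold change of 10.76, or 10.53 with the 2 members that were 0 in SN set to their lower bound. Cx3cr1, the fractalkine receptor of microglia, was at 524, 608, 638 and 617 against 0.225 and 0.454 CPM (10.76 ± 0.41, adjusted p = 2.57e-09) and the complement gene C1qc at 279, 289, 358 and 225 against 0.0564 and 0.142 CPM (11.45 ± 0.45, adjusted p = 2.87e-09). The 4 AP-positive libraries were alike, HET and KO, and SN was near 0. Tyrobp, a signalling adaptor, was at 133, 151, 166 and 162 against 0 and 0 CPM. Against 3 counts over the 2 SN libraries it was at least 3607-fold higher. The resident-cell genes P2ry12 (10.98 ± 0.72) and Tmem119 rose as well. Tmem119 had 1 count in SN, a ratio of 3537 (interval 634.7 to 139700). Csf1r (9.31 ± 0.51), Laptm5 (10.14 ± 0.45) and Itgam (9.34 ± 0.39) rose with them. Mrc1, a receptor of perivascular macrophages, was at 10.3, 72.3, 18.4 and 17.8 against 0 and 0 CPM, with HET replicate 2 apart from the other 3, and was at least 723.2-fold higher.

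The promoter of C1qb (10.53 ± 0.43), a complement subunit gene of the same cells, is shown with ACTTCCT, the reverse complement of the ETS core AGGAAGT, in capitals (RefSeq, GRCm38.p6, chr4:136886151-136886350, minus strand, 5′ to 3′).
C1qb: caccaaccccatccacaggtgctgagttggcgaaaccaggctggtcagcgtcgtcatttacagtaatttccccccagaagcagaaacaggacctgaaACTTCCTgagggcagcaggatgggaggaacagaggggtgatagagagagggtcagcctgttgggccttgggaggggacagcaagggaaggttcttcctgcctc
The match stands 53 bases before the start. AGGAAGT, on either strand, was in 7 of 14 microglia marker promoters (50.0%), 2 of 7 of horizontal cell markers (28.6%), the next highest list, 4 of 25 of cell cycle genes (16.0%), 1 of 11 of RGC markers (9.09%) and 2886 of all 27025 (10.7%). Among tested genes with a promoter the share was 1213 of 11764 (10.3%).

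Cytokines and inflammatory response genes rose with them, 23 of 25 and none lower (median 7.87, 7.76 with bounds). The chemokines Ccl3 (269.8, 317, 365 and 342 against 0.113 and 0.113 CPM; 11.43 ± 0.52, adjusted p = 8.05e-09) and Ccl4 (216, 224, 298 and 272 against 0.0846 and 0.0567 CPM; 11.72 ± 0.56, adjusted p = 1.16e-08) were near 0 in SN. Ccl2 was at 50.3, 56.7, 75.4 and 57.9 against 0 and 0 CPM and at least 1415-fold higher, the inflammasome gene Nlrp3 at least 1387-fold and Tnf at least 1186-fold. Il1b was at 60.98, 75.4, 95.8 and 68.5 against 0 and 0.227 CPM (9.32 ± 0.57). Irf1, an interferon-response factor, did not pass (-0.35 ± 0.33, adjusted p = 0.39). Microglia marker sums were also higher in every AP-positive library than in SN, and the part of microglia in this list was not tested.

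By the rule of the largest called fold change among genes of at least 10 CPM, the 12 highest were Tyrobp, Evi2a, Myo1f, Rgs1, Dock2, Ccl2, Nlrp3, Tnf, Tlr7, Cd33, Emr1 and Cd86, most of them known from myeloid cells. All but Emr1 had 0 counts in SN. Evi2a, for example, was at 69.95, 80.2, 97.9 and 95.4 against 0 and 0 CPM, at least 2022-fold higher, and Cd86 at 27.9, 37.8, 36.3 and 36.9 against 0 and 0 CPM, at least 820.3-fold. Emr1, the F4/80 antigen, had 1 count in SN, a ratio of 13730 (interval 2465 to 542500). The bounds of the others were 1630 for Myo1f, 1469 for Rgs1, 1433 for Dock2, 1162 for Tlr7 and 1085 for Cd33. The 12 lowest included Gli1, Cyp26a1, Foxn4, Sox8, Olig2, Myb, Pmel, Tfap2e, Espn, Hkdc1 and Hes5. Cyp26a1, which degrades retinoic acid, was at 1.06, 0.838, 0.579 and 0.917 against 20.01 and 14.9 CPM (-4.37 ± 0.57, adjusted p = 3.51e-05). Foxn4, a forkhead factor of amacrine and horizontal precursors, was at 2.59, 2.32, 2.29 and 3.73 against 61.3 and 39.6 CPM (-4.21 ± 0.45, adjusted p = 8.02e-06), and Myb, a factor of dividing cells, at 13.8, 12.7, 9.39 and 24.1 against 290.4 and 212 CPM (-4.07 ± 0.47, adjusted p = 1.37e-05). These genes were low in all 4 AP-positive libraries. Tfap2e (-3.94 ± 0.43), Espn (-3.94 ± 0.39) and Hkdc1 (-3.93 ± 0.34) were the remaining ones outside the lists.

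Other non-neuronal genes were mixed. Of 14 astrocyte and optic nerve glia markers 2 rose and 4 fell. Gfap was at 87.8, 90.6, 223 and 74.8 against 6.43 and 6.92 CPM (4.11 ± 0.57, adjusted p = 5.5e-05) and S100b at 11.7, 8.91, 19.4 and 15.7 against 0.676 and 1.16 CPM (3.87 ± 0.53, adjusted p = 6.95e-05), both highest in KO replicate 1, while Olig2 (adjusted p = 7.4e-06), Cnp (-1.37 ± 0.20), Slc1a2 (-1.18 ± 0.23) and Mbp (-0.89 ± 0.21) fell. Of 17 endothelial and mural cell markers (median -0.02) 2 rose, Tek (2.68, 3.66, 12.8 and 10.5 against 1.099 and 1.08 CPM; 2.48 ± 0.74, adjusted p = 0.0121) and Pecam1 (11.1, 8.72, 13.02 and 9.78 against 2.79 and 3.601 CPM; 1.73 ± 0.55, adjusted p = 0.0166), and 2 fell. Kdr, which retinal progenitors also express, was at 62.6, 51.8, 63.9 and 93.6 against 606 and 573 CPM (-3.13 ± 0.40, adjusted p = 2.9e-05), and Pdgfrb was the other (-1.14 ± 0.38). In SN, Kdr made up most of the summed CPM of this list (656 and 626). Neither Tek nor Pecam1 passed without either SN library (adjusted p 0.0633 to 0.122), and Pdgfrb did not without SN HET, HET replicate 2 or KO replicate 2 (adjusted p up to 0.167). Of 6 erythroid markers 4 rose, all haemoglobin genes, whose near-identical copies share reads. Hbb-bs was at 62.9, 118, 40.2 and 68.5 against 4.34 and 14.3 CPM (2.91 ± 0.92, adjusted p = 0.0165), Hba-a2 at 59.3, 89.1, 37.1 and 51.1 against 4.200 and 14.7 CPM (2.60 ± 0.86, adjusted p = 0.02) and Hbb-bt at 17.5, 36.99, 13.1 and 33.2 against 2.82 and 5.501 CPM (2.59 ± 0.87, adjusted p = 0.0217). They varied widely within each fraction, and without SN HET none of the 4 passed (adjusted p 0.144 to 0.167 for these 3). Hbb-bt also did not pass without SN KO, HET replicate 2 or KO replicate 2. Of 10 pigment epithelium and lens markers 6 fell and 2 rose, with Dct (1.03, 1.42, 0.305 and 1.16 against 13.8 and 6.805 CPM; -3.44 ± 0.53, adjusted p = 0.000127), Pmel (1.19, 4.13, 0.457 and 0.887 against 27.8 and 15.96 CPM; -4.03 ± 0.62, adjusted p = 0.000133) and Rdh5 (0.548, 1.76, 1.89 and 1.71 against 6.62 and 6.12 CPM; -2.14 ± 0.41, adjusted p = 0.000606) lower and Mitf (2.40 ± 0.47) higher, a factor that macrophages also use. Of the 2 that rose, 1 did so without SN KO or without KO replicate 1.

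Immediate early and stress genes were mostly higher, 17 of 26 with 3 lower (median 1.20). Hmox1, haem oxygenase, was at 372, 434, 217 and 387 against 1.97 and 2.92 CPM (7.15 ± 0.39, adjusted p = 2.88e-08), the RNA-decay factor Zfp36 at 406, 458, 494 and 342 against 4.85 and 5.302 CPM (6.39 ± 0.35, adjusted p = 2.88e-08) and Atf3, induced by injury, at 158, 171, 167 and 166 against 10.2 and 10.6 CPM (3.99 ± 0.28, adjusted p = 2.68e-07). All 4 AP-positive libraries were above SN. Activity genes moved less, with Fos at 1.32 ± 0.27 and Nr4a1 at 1.16 ± 0.23, and Dusp5 (-1.64 ± 0.25) and Gadd45g (-2.32 ± 0.35) fell. Jun fell too (-0.83 ± 0.20) but not without SN KO (adjusted p = 0.0583). The AP-positive cells were washed on beads while SN was centrifuged, and microglia marker sums were also higher in the AP-positive libraries. Handling, cell makeup and cell state therefore cannot be told apart. Of 23 genes of apoptosis and axon injury 12 rose and 6 fell (median 0.48). The BH3-only gene Pmaip1 was at 18.8, 25.4, 27.4 and 24.8 against 0.874 and 0.595 CPM (5.03 ± 0.46, adjusted p = 2.08e-06), the injury-induced peptide Gal at 10.8, 9.61, 13.5 and 9.05 against 1.04 and 0.482 CPM (3.81 ± 0.35, adjusted p = 2.41e-06) and the JNK kinase Mapk10 at 190.0, 185, 184 and 160.4 against 33.3 and 35.9 CPM (2.38 ± 0.25, adjusted p = 6.73e-06). Ecel1 (4.42 ± 0.70), the axon-maintenance enzyme Nmnat2 (2.51 ± 0.30), and the BH3-only genes Hrk (2.62 ± 0.42) and Bbc3 (2.18 ± 0.40) rose. Trp53 (-1.51 ± 0.16) and Bcl2l11 (-1.37 ± 0.17) fell, and Bax did not pass (0.18 ± 0.14, adjusted p = 0.289).

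Glycolysis genes went both ways. Of 21 glycolysis genes 9 rose and 5 fell. The neuronal glucose transporter Slc2a3 was at 128, 104, 111 and 91.5 against 29.2 and 28.7 CPM (1.91 ± 0.18, adjusted p = 2.97e-06), and the transporter of glia, endothelium and progenitors, Slc2a1, at 57.6, 58.5, 56.1 and 73.9 against 393 and 297 CPM (-2.49 ± 0.30, adjusted p = 1.88e-05). One was above and the other below SN in every library. Hexokinase Hk1 (275, 228, 243 and 194 against 86.7 and 88.5 CPM; 1.42 ± 0.17, adjusted p = 1.82e-05), neuronal enolase Eno2 (1.75 ± 0.22) and Gpi1 (0.89 ± 0.11) rose, and Eno1 (-1.21 ± 0.15), Pkm (-0.85 ± 0.13) and Ldha (-0.76 ± 0.19) fell. Of 26 nuclear genes of mitochondrial respiration 7 rose and 1 fell (median 0.21), close to the share of all genes that rose and below the share that fell. Without SN HET 4 rose. Ndufa1 was at 98.7, 87.4, 145 and 123 against 32.4 and 39.4 CPM (1.64 ± 0.14, adjusted p = 1.67e-06), cytochrome c Cycs at 43.97, 46.1, 41.7 and 48.4 against 17.1 and 14.04 CPM (1.53 ± 0.20, adjusted p = 3.86e-05) and Ndufa4 at 175, 191, 177 and 209 against 106 and 114 CPM (0.77 ± 0.15, adjusted p = 0.00067). Of 19 genes of cholesterol synthesis and export 15 rose and 1 fell (median 0.75), and without SN KO 8 rose. Hmgcs1 was at 1035, 851, 1172 and 744 against 270.2 and 203 CPM (2.00 ± 0.23, adjusted p = 1.32e-05), Apoe at 761, 913, 778 and 681 against 87.1 and 172 CPM (2.59 ± 0.31, adjusted p = 1.74e-05) and Lss at 174, 148, 164 and 119 against 74.6 and 58.8 CPM (1.18 ± 0.17, adjusted p = 6.33e-05). Apoe and the exporter Abca1 (1.51 ± 0.28) are strongly expressed by microglia, whose marker sums were also higher in AP-positive libraries. The part of microglia in these rises was not tested.

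Each genotype was also compared with the same 2 SN libraries. In HET 8741 genes passed (51.6%), 4529 higher (26.7%) and 4212 lower (24.8%), and in KO 8253 (48.7%), 4286 higher (25.3%) and 3967 lower (23.4%). The 2 comparisons share SN, so no overlap between them is given as a result. RGC markers had 21 of 22 higher in each, with medians of 3.48 in HET and 3.25 in KO. Cell cycle genes had 30 of 30 lower in each (-2.93 and -2.32), and microglia markers 19 of 19 higher (10.69 and 10.84). RGC transcription factors had 25 higher and 11 lower in HET and 23 and 15 in KO. Foxp2 was 3.52 ± 0.41 in HET and 1.09 ± 0.38 in KO, Tusc5 5.83 ± 0.73 and 1.35 ± 0.64, and Irx4 4.83 ± 0.56 and 2.89 ± 0.52. Bnc2 was 4.07 ± 0.74 and 4.93 ± 0.77, the higher value in KO. These pairs of values are given side by side, and a test between genotypes was not part of the comparison.

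The enrichment through Brn3a was then compared with that through Brn3b, whose AP-positive and SN libraries are separate from those above. The log2 fold change over SN in the Brn3a capture minus that in the Brn3b capture passed for 3195 genes (18.8%), 1917 above 0 (11.3%) and 1278 below (7.54%). That count was 1355 without the Brn3a SN HET library, 1655 without Brn3a SN KO, 1955 without Brn3b HET AP-positive replicate 1, 1301 without Brn3b SN HET and 1716 without Brn3b SN KO. Without Brn3a KO AP-positive replicate 2, whose labels disagree, it was 4260, with 2035 above 0 and 2225 below, so the balance of directions turned. RGC markers had 18 of 22 above 0 and none below, with a median difference of 2.25. The Brn3b libraries differed by genotype, since the summed CPM of RGC markers was 4872 and 7010 in the Brn3b HET and 1977 and 2339 in the Brn3b KO AP-positive libraries, with 1755 and 1450 in SN. A comparison added after seeing these sums used only HET AP-positive libraries on both sides, against SN groups that still pooled HET and KO. In this comparison, called HET only below, 346 genes passed, 273 above 0 and 73 below. Of the 22 RGC markers 9 were above 0, with a median of 1.61. Microglia markers had 17 of 19 above 0 with both genotypes (median 4.06) and 9 with HET only (3.45). The size of these 2 medians rests in part on SN values near 0. Summed microglia markers were at 20.0 and 19.5 CPM in Brn3a SN and at 53.4 and 37.5 in Brn3b SN. In AP-positive libraries the sums were 5373 to 6707 CPM for Brn3a, 3791 and 4677 for Brn3b HET and 2280 and 1817 for Brn3b KO. Single genes below can be read against the list medians.

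Pou4f3 rose in the Brn3a capture and was at 8.21 and 10.05 CPM in Brn3b HET, 3.35 and 7.28 in Brn3b KO and 6.01 and 5.36 in Brn3b SN. The difference was 4.48 ± 0.73 (adjusted p = 0.00239). For Pou4f1 it was 2.69 ± 0.78 (adjusted p = 0.0324), a call lost without any of 8 of the 12 libraries (adjusted p up to 0.12). For Pou4f2, the gene mutated in Brn3b KO, it was 2.09 ± 0.47 (adjusted p = 0.0114). With HET only on both sides, Pou4f2 was at 0.08 ± 0.54 (adjusted p = 0.964), Pou4f1 at 4.47 ± 0.91 (0.0339) and Pou4f3 at 3.99 ± 0.82 (0.0339). Irx4 (4.16 ± 0.63), Bnc2 (4.31 ± 0.87), Isl2 (3.46 ± 0.80), Tfap2d (3.12 ± 0.60), Irx2 (3.03 ± 0.70), Tusc5 (4.32 ± 0.79) and Nts (7.50 ± 1.13) were above 0 by more than the RGC marker median. In Brn3b HET, Bnc2 was at 1.35 and 3.87 CPM and Irx4 at 6.73 and 10.6. In Brn3b SN they were at 2.24 and 1.56 and at 6.34 and 3.41. Bnc2 overlapped between these fractions, and Irx4 in HET lay just above SN. With HET only on both sides the differences were 4.01 ± 0.71 for Irx4 (adjusted p = 0.0206), 3.23 ± 0.69 for Tfap2d (0.0365), 6.48 ± 0.92 for Tusc5 (0.00906) and 8.05 ± 1.29 for Nts (0.0133). Bnc2 (3.61 ± 0.98, 0.0727), Isl2 (3.35 ± 0.91, 0.073) and Irx2 (2.50 ± 0.77, 0.0962) did not pass in that comparison. Isl2 also did not pass without Brn3a SN HET or Brn3b SN HET (adjusted p up to 0.0724).

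A pair of T-box factors went the other way. Tbx20, low in Brn3a AP-positive cells, was at 57.9 and 105 CPM in Brn3b HET, 4.38 and 5.59 in Brn3b KO and 6.098 and 5.39 in Brn3b SN. The difference was -3.71 ± 0.61 (adjusted p = 0.00245), and -5.68 ± 0.71 with HET only (adjusted p = 0.00605). Eomes was at 65.5 and 101 in Brn3b HET, 33.5 and 28.7 in KO and 23.7 and 25.5 in SN, with a difference of -3.06 ± 0.39 (adjusted p = 0.00106; -3.71 ± 0.45 and 0.00476 with HET only). Both Brn3b HET libraries were above every other library of the 12. Opn4 was at 21.1 and 27.5 CPM in Brn3b HET against 5.55 and 5.94 in SN, and its difference of -1.81 ± 0.65 did not pass (adjusted p = 0.0701). Dlx1 was below 0 too (-3.04 ± 0.41), and at -1.85 ± 0.47 with HET only (adjusted p = 0.0592). Tbr1, the third T-box gene of ganglion cells, was above 0 (1.55 ± 0.48, adjusted p = 0.0393), but at 0.78 ± 0.54 with HET only (adjusted p = 0.421) and not passing without any of 9 of the 12 libraries.

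**Figure D5:**
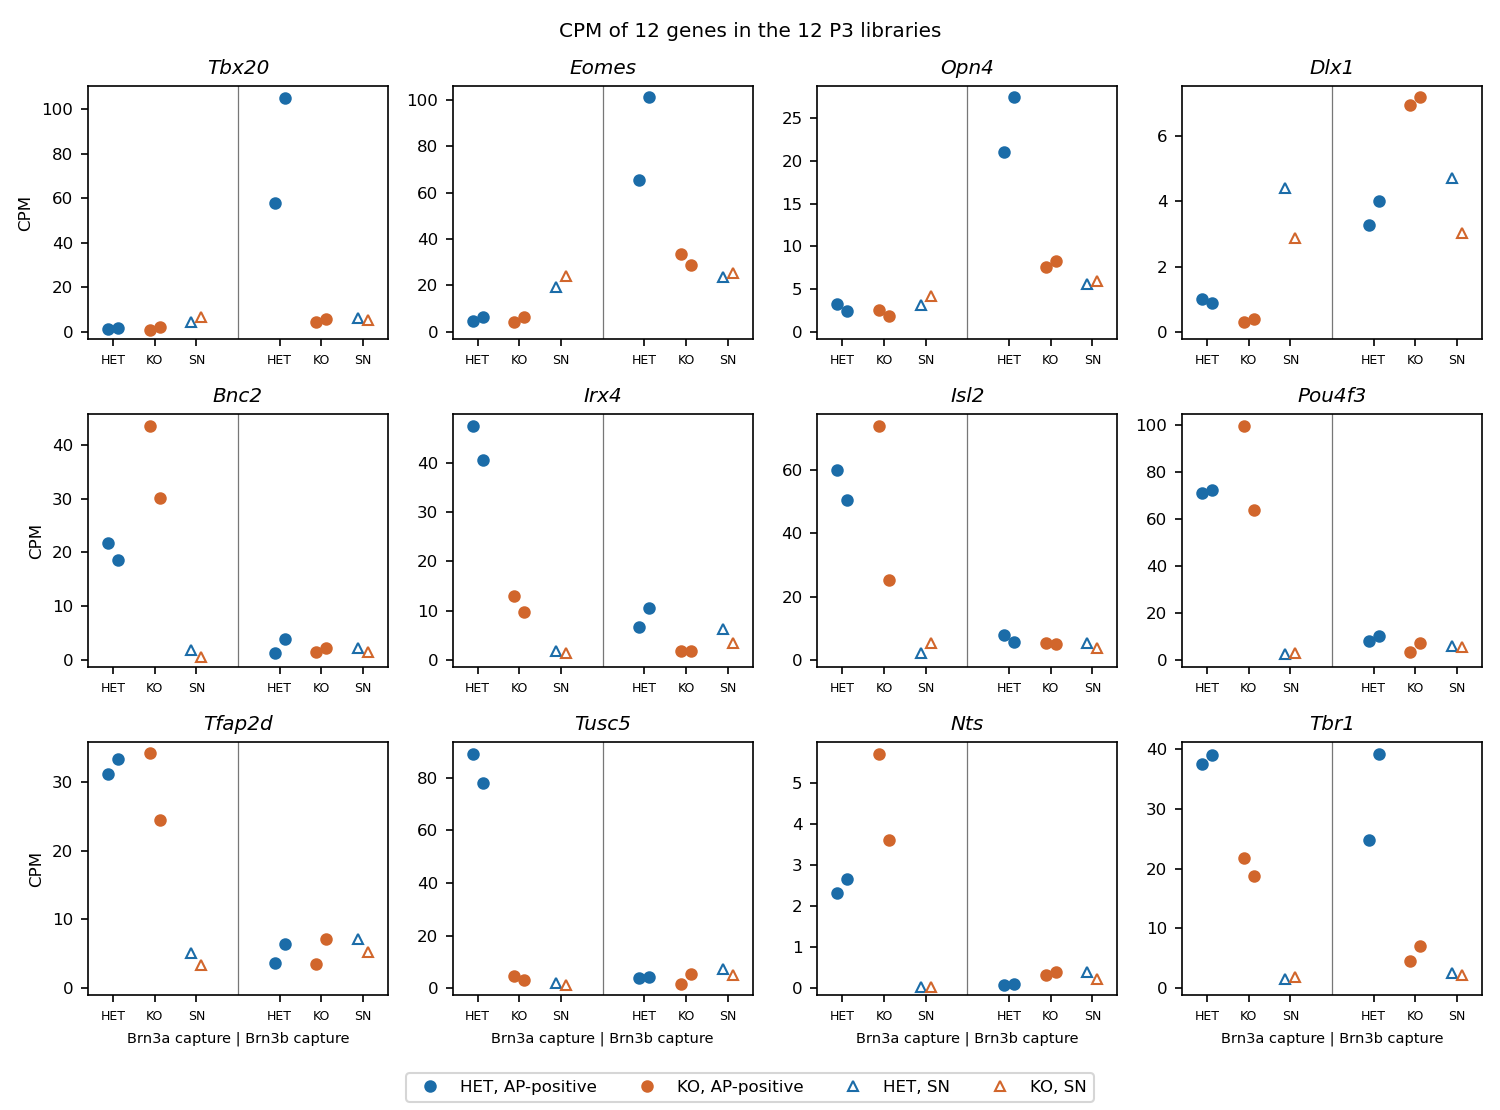
CPM of 12 transcription factors and type markers in the 12 P3 libraries. Each panel is a gene, with AP-positive HET, AP-positive KO and SN libraries of the Brn3a capture (left) and the Brn3b capture (right) as points on a linear axis from 0. Tbx20, Eomes and Opn4 are highest in Brn3b HET. The highest values of Bnc2, Irx4, Isl2 and Pou4f3 are in Brn3a AP-positive libraries, though Irx4 in Brn3a KO replicate 2 lies below the higher Brn3b HET library.

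By the rule, the 8 largest called differences above 0 were Tyrobp, Evi2a, Ccrl2, Wdfy4, Tlr7, Cd33, Myo1f and Nlrp3. All were at 0 in Brn3a SN and above 0 in Brn3b SN or 1 of its libraries, so their size rests on counts near 0. Tyrobp, for example, was at 1.35 and 0.766 CPM in Brn3b SN and 90.4 and 123 in Brn3b HET AP-positive cells. The 8 below 0 were Tbx20, Eomes, Krt73, Cd93, Gli1, Glcci1, Foxn4 and Fgf15. Cd93 was at 8.88, 6.06, 17.7 and 10.5 against 7.16 and 7.88 CPM in the Brn3a capture and did not pass there (0.45 ± 0.64, adjusted p = 0.574), and was at 37.1 and 12.5 and 21.2 and 56.6 in Brn3b HET and KO against 3.31 and 3.28 in Brn3b SN, varying widely. Its difference was -2.79 ± 0.91 (adjusted p = 0.0496). Krt73, a keratin gene, was at 1.34, 0.754, 1.74 and 3.27 against 12.2 and 6.12 CPM in the Brn3a capture and at 9.91 and 11.05 in Brn3b HET against 10.5 and 9.99 in Brn3b SN (difference -2.94 ± 0.50), and Glcci1 had a difference of -2.65 ± 0.68. The progenitor genes Gli1 (-2.67 ± 0.82), Foxn4 (-2.53 ± 0.65) and Fgf15 (-2.53 ± 0.68) were less depleted in the Brn3b capture, where Fgf15 in 1 KO AP-positive library exceeded SN. The calls of Cd93, Gli1, Foxn4, Fgf15, Glcci1 and Tlr7 were lost without 1 library for 10, 8, 3, 4, 3 and 3 of the 12, and with HET only on both sides (adjusted p 0.0853 to 0.297). Without Brn3b SN HET, Tlr7 had no counts in any SN library left, and its difference could not be estimated.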

How the data were processed

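mRNA of bead-bound and unbound retinal cells was sequenced as stranded libraries, single-end, per the labels' protocols. The authors deposited estimated counts per transcript for 88198 transcripts. The submitters' processing notes name Trimmomatic 0.32, Bowtie2 2.2.1, eXpress 1.3.1 and the build GRCm38.p3, and use of strand in counting is not given in the sources used here, so reads of overlapping genes may be shared. Estimated counts were summed to 30735 genes and rounded, and 27 symbols stored as dates were restored from gene identifiers. Genes kept by filterByExpr (minimum count 10) were tested with edgeR 4.0.16 (R 4.3.3), using TMM scaling and quasi-likelihood tests over 18 retinal libraries in 9 groups with 9 residual degrees of freedom. P-values carry Benjamini-Hochberg adjustment over 16954 genes. The biological coefficient of variation was 26.78%. DESeq2 1.42.0, other scalings, filters, sample sets, a replicate block and leaving out libraries were alternatives. The script was tested on simulated data.

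Named genes were the Pou4f genes, the 12 highest and 12 lowest called folds (at least 10 CPM, no overlap of fractions), the 8 and 8 largest differences between captures, and list members, including the 3 with the smallest adjusted p, although some of these genes are not reported here. The members and gene lists were chosen with earlier results of these data known. Ratios against SN groups with no counts used a floor of 3 counts over the group, and intervals (95%) and floors cover counting error only. HET and KO libraries share replicate numbers, but the labels do not say that a number marks a shared source.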

Additional observations from a re-analysis of the deposited data

Results flagged for a closer look

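The difference from SN differed between the Brn3a and the Brn3b capture for 3195 genes by a test of the difference itself, and the named genes among them are given here as log2 differences. Ganglion cell factors and type genes above 0 were Pou4f3 (4.48), Bnc2 (4.31), Tusc5 (4.32), Irx4 (4.16), Isl2 (3.46), Tfap2d (3.12), Irx2 (3.03), Pou4f1 (2.69), Pou4f2 (2.09), Tbr1 (1.55) and Nts (7.50). With HET only on both sides, Pou4f2 was at 0.08 (adjusted p = 0.964) and Tbr1 at 0.78 (adjusted p = 0.421). Bnc2, Isl2 and Irx2 did not pass in that comparison either. The size of the Nts difference rests on 2 counts in Brn3a SN. Genes known from myeloid cells above 0 were Tyrobp (9.21), Evi2a (8.54), Ccrl2 (8.36), Wdfy4 (7.36), Tlr7 (7.32), Cd33 (7.27), Myo1f (7.24) and Nlrp3 (7.23). The size of these differences rests on SN counts near 0, and Tlr7 did not pass with HET only. Genes below 0 were Tbx20 (-3.71), Eomes (-3.06), Dlx1 (-3.04), Krt73 (-2.94), Cd93 (-2.79), Gli1 (-2.67), Glcci1 (-2.65), Foxn4 (-2.53) and Fgf15 (-2.53). Of these, Dlx1, Cd93, Gli1, Glcci1, Foxn4 and Fgf15 did not pass with HET only.

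In 27 of 332 values checked, 1 of the 4 AP-positive libraries lay apart from the other 3 by more than Dixon's 95% critical value, which chance passes in about 1 in 20 groups. KO replicate 2, the library whose labels disagree, was the one apart in 14. It was highest for the progenitor genes Ccnd1 (93.3 CPM), Lhx2 (17.8 CPM) and Neurog2 (6.88 CPM), for Sox4 (645 CPM), Nhlh2 (70.4 CPM), Tfap2a (28.2 CPM), Epha3 (10.5 CPM), Chrnb4 (41.1 CPM), Gabrd (1.93 CPM) and Slc2a1 (73.9 CPM). It was lowest for Grin1 (85.6 CPM), Sema3e (82.3 CPM), Nrp1 (117 CPM) and Hrk (19.3 CPM). KO replicate 1 was highest for Pou4f2 (391 CPM), Gfap (223 CPM), Gphn (121 CPM) and the microglial genes C1qb (457 CPM), Laptm5 (651 CPM) and Rgs1 (78.1 CPM). HET replicate 2 was highest for Mrc1 (72.3 CPM) and the summed pigment epithelium and lens markers (35.2 CPM), and lowest for Dlx2 (0.252 CPM) and Epha5 (139 CPM). HET replicate 1 was highest for Nlgn1 (93.5 CPM) and lowest for Cd86 (27.9 CPM) and Rdh5 (0.548 CPM).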

How the results depend on the processing

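No named gene's value reversed its direction. Which direction held more called genes did turn under several alternatives. Against SN, for example, it went from 4760 higher and 4762 lower to 4971 and 4439 with DESeq2's scaling factors, from 4529 and 4212 to 4132 and 4320 in HET with no filter, and from 4286 and 3967 to 4314 and 4512 in KO with the 12 P3 libraries only. For the difference between captures it went from 1917 above 0 and 1278 below to 2035 and 2225 without Brn3a KO replicate 2. The 9522 genes called between Brn3a AP-positive and SN became 5390 with a minimum of 2-fold, and ran from 7407 to 9558 when each library was left out in turn. The same range was 6666 to 7189 for HET alone and 5979 to 8061 for KO alone. The 3195 genes called for the difference between captures ranged from 1301 to 4260 when each of the 12 libraries was left out. They became 346 with HET AP-positive libraries only on both sides, and this comparison was chosen after seeing the data. The cause of these changes was not tested. Each fit with a library left out holds fewer samples, while the HET-only comparison used the same fit of 18 libraries. DESeq2 called 4447 for that difference. Of 4800 values of 300 named genes under alternatives 38 lost and 19 gained the call, and of 580 values for 29 genes in the difference 65 lost and 3 gained it. With the replicate block, 9552 genes were called for both genotypes, 8872 in HET, 8389 in KO and 3524 in the difference. The deviations of same-numbered HET and KO libraries correlated at 0.0909, so the numbers were not taken as a pairing. Without KO replicate 2, members lower were 22 for photoreceptor, 4 for synaptic vesicle and 1 for endothelial markers. SN had 1 library per genotype, which limits every comparison here.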
